A study of Mus musculus with 9 samples.

Results

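The mitosis and cytokinesis genes described here are 42 genes whose products carry a cell from mitotic entry to the division of its body. They were chosen by name and not by a measured value, and were represented by 78 probes among the 45281 gene probes (30869 gene symbols) of the Illumina MouseWG-6 v2.0 bead array. All 42 had at least 1 probe, 41 under the current symbol and Nuf2 under the older symbol Cdca1. The arrays measured activated hepatic stellate cells (aHSCs), the liver pericytes that turn into collagen-producing myofibroblasts after injury, from mice labelled as male C57/Bl6 of genotype WT1GFP/+, which carry a green fluorescent protein (GFP) reporter of WT1. WT1-high (GFP high) and WT1-intermediate (GFP low) cells were sorted straight from livers scarred by repeated intraperitoneal carbon tetrachloride. WT1-negative (GFP negative) cells came from mice of the same genotype and were sorted after 7 days of activation on plastic. Each group had 3 arrays, and the liver cells came from 3 animals. All groups carried the reporter allele, and neither WT1-negative cells from liver nor WT1-positive cells from culture were analysed here, so WT1 status and origin cannot be told apart in any comparison with WT1-negative cells.

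Most of these genes are transcribed late in the cell cycle, are silent in cells that have left it, and are read as a sign of proliferation in tissue. Cyclin B with its kinase drives entry into mitosis, the kinetochore and spindle checkpoint hold the chromosomes until all are attached, and the anaphase-promoting complex then releases the sister chromatids. The chromosomal passenger complex, kinesins and the central spindle finish the division. Quiescent stellate cells rarely divide, and activation, in injured liver and on plastic, is known to bring them into the cell cycle. Their promoters are known for CCAAT boxes, bound by NF-Y, and for the cell cycle genes homology region (CHR), TTTGAA or TTTAAA close to the start site, through which the MuvB core holds them off in resting cells and, with B-Myb and FoxM1, switches them on.

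These sequence features were common in the members' promoters. RefSeq promoter windows (GRCm38.p6, 250 bases before to 50 bases after the start) were matched for 36 members, with 38 windows. CCAAT, searched on both strands, stood in 76.3% of the 38 windows and in 37.4% of all 32851 windows. TTTGAA or TTTAAA, also on both strands, stood in 84.2% of the members' windows against 27.6% of all windows, and within 50 bases of the start, to either side, in 73.7% against 8.28%. Both kinds of motif were found together in 73.7% of the members' windows and in 10.7% of all. At least 2 CCAAT boxes stood in 50% against 11.7%. A match is a description of the letters and not of a bound site.

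The last 100 bases before the start are shown for 6 members described below that hold both motifs there and for Mad2l1, which holds neither. Capitals mark a CCAAT box (on the other strand, ATTGG) and a CHR, which reads TTCAAA where it lies on the other strand.
Ccnb1 (chr13:100786487-100786586, minus strand): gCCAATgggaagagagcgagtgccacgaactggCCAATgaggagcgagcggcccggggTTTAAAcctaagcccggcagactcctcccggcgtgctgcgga
Cdc20 (chr4:118437344-118437443, minus strand): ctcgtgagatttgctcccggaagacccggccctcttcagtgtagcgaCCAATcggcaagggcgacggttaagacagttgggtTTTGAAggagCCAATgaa
Plk1 (chr7:122159335-122159434, plus strand): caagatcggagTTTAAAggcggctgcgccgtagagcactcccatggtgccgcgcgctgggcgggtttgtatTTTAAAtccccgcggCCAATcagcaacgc
Top2a (chr11:99024190-99024289, minus strand): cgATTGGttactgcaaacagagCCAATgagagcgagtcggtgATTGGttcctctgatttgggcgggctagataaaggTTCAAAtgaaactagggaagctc
Cenpa (chr5:30666786-30666885, plus strand): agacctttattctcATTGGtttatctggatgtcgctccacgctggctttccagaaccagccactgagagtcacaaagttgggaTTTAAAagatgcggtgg
Kif11 (chr19:37376282-37376381, plus strand): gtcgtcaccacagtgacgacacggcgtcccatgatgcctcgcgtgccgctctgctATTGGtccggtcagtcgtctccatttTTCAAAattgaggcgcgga
Mad2l1 (chr6:66535121-66535220, plus strand): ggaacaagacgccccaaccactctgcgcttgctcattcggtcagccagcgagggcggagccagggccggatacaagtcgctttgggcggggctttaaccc
Ccnb1 and Cdc20 showed 2 CCAAT boxes each in this stretch, and Plk1 showed TTTAAA at 2 places. The members' CCAAT boxes crowded into the 100 bases before the start and their CHR letters around it.

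**Figure D1:**
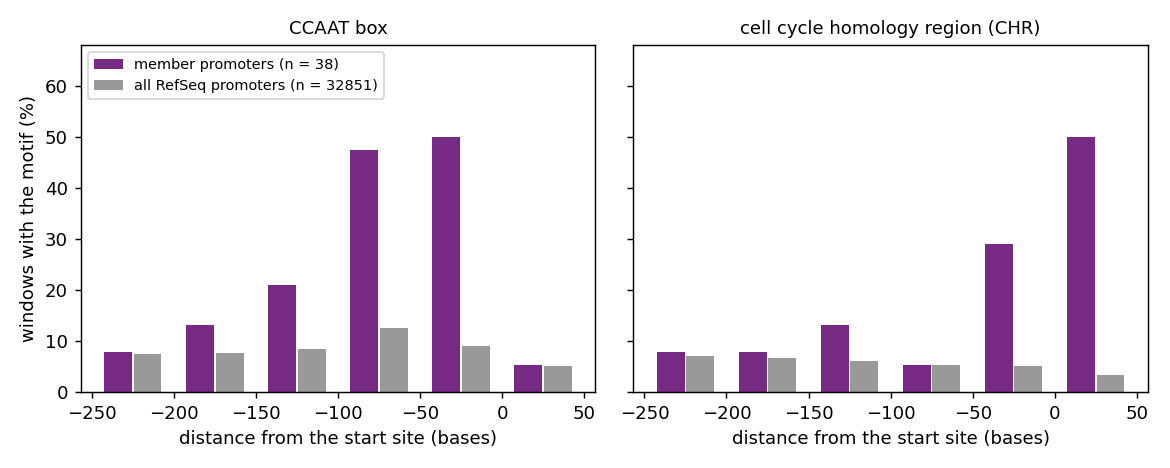
Share of promoter windows with a CCAAT box (left) or a CHR, TTTGAA or TTTAAA (right), in bins of 50 bases by distance from the start site, for the 38 windows of the mitosis genes (purple) and all 32851 RefSeq windows (grey). In the bin just before the start a CCAAT box stood in 50% of the members' windows against 9.03%, and in the bin just after it a CHR stood in 50% against 3.37%.

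A probe was tested when at least 3 of the 9 arrays gave it a detection p under 0.05. Of the 42 members, 31 were tested, with 46 of the 78 probes, and each is given by its probe with the highest mean. The other 11 members were Ccna2, Ccnb2, Ube2c, Bub1, Ttk, Cenpe, Nuf2, Kif20a, Hmmr, Tacc3 and Racgap1. Their 15 probes include 13 that were detected on no array, and the rest were a Tacc3 probe detected on 1 WT1-negative array and a Racgap1 probe detected on 1 WT1-intermediate array. No level can be given for these members, which include cyclins A2 and B2. Bub1, a kinase of the spindle checkpoint, had log2 levels of 4.21, 4.32 and 4.25 on WT1-high arrays, 4.18, 4.22 and 4.45 on WT1-intermediate arrays and 4.25, 4.28 and 4.21 on WT1-negative arrays. These lie under the lowest level of a detected probe, which was 4.48 to 4.65 on the 9 arrays. Detection differed by the source of the probe's transcript, with 41 of 62 RefSeq probes of the members tested against 1 of 7 Riken probes, and over all probes 49.1% against 25.2%.

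Between 17253 and 19774 probes were detected per array (38.1% to 43.7%), and mean signals were 147 to 289. Of 14 stellate cell markers, desmin, vimentin, decorin and Pdgfrb were detected on all 9 arrays, and Gfap and Lhx2 on none. Lrat, Hand2 and Colec11 were also detected on no WT1-negative array, and Lrat and Ngfr on no WT1-intermediate array. The list's summed linear level was 17368 to 18227 on WT1-high, 17753 to 23238 on WT1-intermediate and 6883 to 9026 on WT1-negative arrays. Macrophage markers were present in every group, with 12, 14 and 13 of 15 genes detected on all arrays of WT1-high, WT1-intermediate and WT1-negative cells. Their summed linear level was 4976 to 8342 on WT1-high arrays, 15714 to 26688 on WT1-intermediate arrays and 44224 to 49439 on WT1-negative arrays, with Clec4f detected on no WT1-negative array. Skeletal muscle markers (10 genes) summed to 374 to 656, 339 to 391 and 7067 to 10735 in the same order, with Myl1, Acta1, Mylpf, Myog, Myod1 and Ckm detected on no liver array and Ckm on no array. By summed level the macrophage and muscle lists were highest in WT1-negative cells. Against those cells, 10 macrophage genes were called lower and 1 higher in WT1-high cells, and 5 lower and 4 higher in WT1-intermediate cells. Of the muscle genes 8 and 9 were called lower and 0 higher. Over all probes 33.1% and 33.6% were called lower and 26.5% and 24.4% higher. The part of any marker list in the results was not tested. Mesothelial markers (11 genes) went the other way, at 34112 to 37888, 19677 to 26925 and 446 to 561.

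The study stained injured liver for Ki67 protein and found more positive cells among WT1-negative than among WT1-positive aHSCs. It also reported cell cycle terms as overrepresented in the WT1-negative cells of the arrays. The arrays measure RNA, and their WT1-negative cells came from culture, so they are unlike the staining. Every tested mitosis gene was lower in value in both kinds of liver cell than in cultured WT1-negative cells, most by several fold. In WT1-high cells 30 of 31 tested members were called lower (limma, adjusted p under 0.05), where 33.1% of the 20573 probes tested were called lower. None was called higher, against 26.5% of all probes. In WT1-intermediate cells all 31 tested members were called lower, where 33.6% of all probes were, and none was called higher, against 24.4% of all probes. Median log2 differences of the tested members were -2.82 and -3.01 (-2.74 and -3.01 with the members under background in liver at their bound), while those of all probes were -0.10 and -0.13. Among the lowest 5% of all probes (log2 differences under -1.74 and -1.56) stood 26 and 27 of the 31 (26 and 26 at their bounds). In 12 and 16 members the fall was at least 8-fold. Both comparisons share the same 3 WT1-negative arrays, so they are not independent of each other. In bulk samples fewer cells of a dividing type and less RNA per cell cannot be told apart.

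The tested members include 9 that were detected on fewer than 3 of the 6 liver arrays (Melk, Cenpf, Ndc80, Kif11, Kif2c, Kif4, Tpx2, Ckap2 and Ect2), and these passed the filter only by virtue of the WT1-negative arrays, so that a difference was built into their selection. The other 22 were detected on at least 3 liver arrays, and all 22 were called lower in both comparisons, with log2 differences of -4.26 to -1.35 in WT1-high cells and -4.39 to -1.20 in the WT1-intermediate ones. Of these 22, 21 and 21 stood among the lowest 5% of all probes, and 11 and 15 fell at least 8-fold. On all 9 arrays 17 members were detected. Levels on each array are given in the order replicates 1, 8 and 29 for WT1-high, 1, 8 and 30 for WT1-intermediate, and 3, 11 and 14 for WT1-negative cells.

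**Figure D2:**
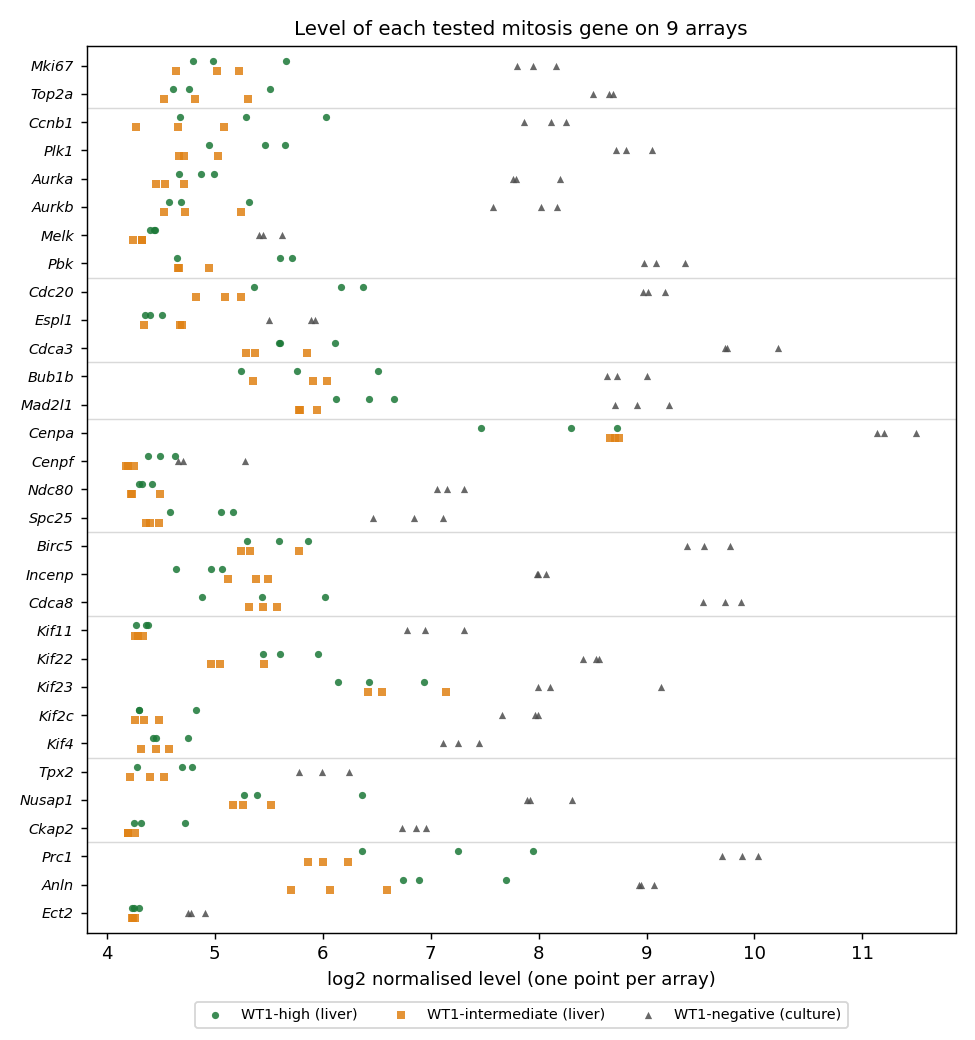
Log2 normalised level of the 31 tested members, by role, with 1 point per array for WT1-high (green circles), WT1-intermediate (orange squares) and WT1-negative cells (grey triangles). In every row the 3 WT1-negative arrays lie to the right of all 6 liver arrays, and the liver groups mostly overlap. Part of the separation was built in, as 9 members passed the filter only through the WT1-negative arrays.

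Mki67 encodes the Ki-67 antigen that coats mitotic chromosomes. Its log2 levels were 4.80, 5.66 and 4.99 on WT1-high arrays, 4.64, 5.02 and 5.23 on WT1-intermediate arrays and 8.16, 7.80 and 7.95 on WT1-negative arrays. Cultured cells were apart from all liver cells, while the liver groups overlapped. Mki67 was detected on all liver arrays although it was 7.09-fold and 8.05-fold lower in WT1-high and WT1-intermediate cells (adjusted p 1.8e-06 and 1.4e-06). Top2a encodes the topoisomerase that untangles sister chromatids. Its levels were 4.61, 5.51 and 4.76 on WT1-high arrays, 4.54, 4.82 and 5.30 on WT1-intermediate arrays and 8.65, 8.69 and 8.51 on WT1-negative arrays, again without overlap between liver and culture. The log2 differences were -3.65 ± 0.25 (SE) in WT1-high cells and -3.73 ± 0.25 in the WT1-intermediate ones (adjusted p 4.2e-07 and 4.7e-07).

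Of the 8 mitotic cyclins and kinases, 6 were tested and all 6 were lower in both comparisons. Cyclin B1 (Ccnb1), which activates the kinase that starts mitosis, had levels of 4.68, 6.04 and 5.29 on WT1-high arrays, 4.27, 5.09 and 4.66 on WT1-intermediate arrays and 8.25, 8.11 and 7.86 on WT1-negative arrays. It was 6.69-fold lower in WT1-high cells and 10.6-fold lower in the WT1-intermediate ones (adjusted p 1.8e-05 and 4.4e-06). The liver groups overlapped, with WT1-high replicate 8 the highest of the 6. Polo-like kinase 1 (Plk1), which acts at centrosomes and kinetochores, gave 4.95, 5.65 and 5.47 on WT1-high arrays, 4.67, 5.03 and 4.72 on WT1-intermediate arrays and 9.05, 8.72 and 8.81 on WT1-negative arrays. Its log2 difference was -3.50 ± 0.20 (SE) and -4.05 ± 0.20 (adjusted p 1.0e-07 and 4.5e-08). Pbk, another mitotic kinase, fell by 14.1-fold and 20.8-fold, and the aurora kinases Aurka (spindle poles) and Aurkb (centromeres) fell by 8.41-fold and 8.35-fold in WT1-high cells. Melk had levels of 4.44, 4.44 and 4.40 on WT1-high arrays, 4.25, 4.32 and 4.33 on WT1-intermediate arrays and 5.45, 5.62 and 5.41 on WT1-negative arrays. It was detected on no liver array, so its fall was at least 1.93-fold and at least 1.91-fold (adjusted p 3.8e-05 and 1.9e-05).

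Genes of mitotic exit and entry fell as well. Cdc20, which activates the anaphase-promoting complex, had levels of 5.37, 6.38 and 6.17 on WT1-high arrays, 4.83, 5.24 and 5.10 on WT1-intermediate arrays and 9.17, 9.02 and 8.97 on WT1-negative arrays. All 3 WT1-high arrays lay above all 3 WT1-intermediate arrays, and all liver arrays below culture. It was 8.46-fold lower in WT1-high cells and 15.9-fold lower in the WT1-intermediate ones (adjusted p 1.0e-06 and 1.8e-07). Cdca3, which promotes mitotic entry, showed the largest measured fall of any tested member in WT1-intermediate cells. Its levels were 5.60, 6.11 and 5.60 on WT1-high arrays, 5.29, 5.37 and 5.86 on WT1-intermediate arrays and 10.22, 9.74 and 9.73 on WT1-negative arrays, a log2 difference of -4.13 ± 0.22 (SE) and -4.39 ± 0.22 (adjusted p 5.6e-08 and 4.5e-08). Separase (Espl1), the protease that opens cohesin rings, stood near background in liver cells and fell by 2.55-fold and 2.30-fold.

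In the spindle checkpoint, Bub1b and Mad2l1 were tested and Bub1 and Ttk were not. Bub1b (BubR1) and Mad2l1 (Mad2), which together restrain Cdc20, fell by 7.72-fold and 5.80-fold in WT1-high cells and by 8.11-fold and 8.58-fold in WT1-intermediate cells. Both were detected on all 9 arrays. The second tested probe of Mad2l1 fell less, by 1.00 and 1.40 on the log2 scale.

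Centromere and kinetochore genes fell by unequal amounts. Cenpa, the histone variant that marks centromeres, had levels of 7.47, 8.73 and 8.30 on WT1-high arrays, 8.66, 8.74 and 8.71 on WT1-intermediate arrays and 11.50, 11.13 and 11.20 on WT1-negative arrays. It was well above background in every group, and was 8.64-fold lower in WT1-high cells and 5.94-fold lower in the WT1-intermediate ones (adjusted p 2.1e-06 and 1.1e-05). WT1-high replicate 1 was the lowest array. Of the Ndc80 complex, which grips the microtubules, Ndc80 was detected on no liver array and was at least 6.16-fold and at least 6.12-fold lower, and Spc25 was called lower in both comparisons by both of its tested probes. The brighter Spc25 probe was detected on all 3 WT1-high arrays and on no WT1-intermediate array, and the other on 2 and 1. Cenpf, a large protein of the outer kinetochore, was the exception among the tested members. Its levels were 4.63, 4.50 and 4.38 on WT1-high arrays, 4.20, 4.18 and 4.25 on WT1-intermediate arrays and 4.70, 5.28 and 4.66 on WT1-negative arrays, with 1 liver array and 3 WT1-negative arrays detected. Cenpf had a log2 difference of -0.38 ± 0.18 (SE, adjusted p 0.091) in WT1-high cells, not called. It was detected on no WT1-intermediate array and was at least 1.25-fold lower there (adjusted p 0.0077).

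The chromosomal passenger complex corrects attachments and then guides cleavage. Its kinase Aurkb (-3.06 and -3.09 on the log2 scale) was grouped here with the cyclins and kinases. Without Aurkb the complex had the lowest median of the 9 roles (-3.97 and -4.11), and the ranking was not made with Aurkb included. Cdca8 (borealin) showed the largest measured fall of any tested member in WT1-high cells. Its levels were 4.88, 6.02 and 5.44 on WT1-high arrays, 5.32, 5.45 and 5.58 on WT1-intermediate arrays and 9.87, 9.73 and 9.52 on WT1-negative arrays. The log2 difference was -4.26 ± 0.25 (SE) and -4.25 ± 0.25 (adjusted p 1.1e-07 and 1.6e-07), so borealin was 19.2-fold and 19.1-fold lower. Birc5 (survivin) had levels of 5.30, 5.86 and 5.59 on WT1-high arrays, 5.33, 5.25 and 5.78 on WT1-intermediate arrays and 9.77, 9.53 and 9.37 on WT1-negative arrays, and it was 15.7-fold and 17.2-fold lower (adjusted p 4.1e-08 and 4.2e-08). All 3 Birc5 probes fell, with log2 differences of -4.20 to -3.97 in WT1-high cells. Incenp, the scaffold of the complex, was 8.72-fold and 6.41-fold lower. The liver and culture arrays did not overlap for any of the 3 genes.

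Mitotic kinesins move chromosomes and slide microtubules, and 5 of 6 were tested and called lower in both comparisons. Kif11 (Eg5), which pushes the spindle poles apart, had levels of 4.36, 4.38 and 4.27 on WT1-high arrays, 4.29, 4.26 and 4.34 on WT1-intermediate arrays and 6.94, 7.31 and 6.78 on WT1-negative arrays. It was detected on every WT1-negative array and on no liver array, so its fall was at least 5.51-fold and at least 5.47-fold (adjusted p 1.4e-07 and 1.6e-07). Kif2c, a microtubule depolymerase, was 10.5-fold lower in WT1-high cells, where 1 array detected it, and at least 9.95-fold lower in the WT1-intermediate ones, where none did. Kif23, part of centralspindlin, gave 6.14, 6.94 and 6.43 on WT1-high arrays, 6.42, 6.55 and 7.15 on WT1-intermediate arrays and 9.13, 8.00 and 8.11 on WT1-negative arrays. Its log2 differences were -1.91 and -1.71 by this probe and -3.01 and -3.14 by a second, so its probes differed in size but not in direction.

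Of the 5 spindle assembly genes, 3 were tested and called lower in both comparisons. Tpx2, which activates Aurka on the spindle, had levels of 4.28, 4.79 and 4.70 on WT1-high arrays, 4.21, 4.53 and 4.40 on WT1-intermediate arrays and 6.24, 5.78 and 6.00 on WT1-negative arrays. It was 2.67-fold lower in WT1-high cells and at least 2.73-fold lower in the WT1-intermediate ones (adjusted p 5.4e-05 and 2.2e-05), with 2 of 6 liver arrays detected. Nusap1 and Ckap2, which stabilise spindle microtubules, fell by 5.14-fold and 5.36-fold in WT1-high cells. Nusap1 was detected on all 9 arrays, and Ckap2 on 1 of 6 liver arrays.

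Of the cytokinesis genes, 3 of 4 were tested and called lower in both comparisons. Prc1, which bundles the central spindle, had levels of 6.36, 7.95 and 7.25 on WT1-high arrays, 5.87, 6.01 and 6.24 on WT1-intermediate arrays and 9.89, 10.04 and 9.70 on WT1-negative arrays. It was 6.44-fold lower in WT1-high cells and 14.3-fold lower in the WT1-intermediate ones (adjusted p 2.5e-05 and 2.0e-06), and the 3 groups did not overlap. Anillin (Anln), the scaffold of the contractile ring, was named after its values were seen. It gave 6.75, 7.70 and 6.89 on WT1-high arrays, 5.71, 6.60 and 6.07 on WT1-intermediate arrays and 9.07, 8.95 and 8.93 on WT1-negative arrays, with log2 differences of -1.87 ± 0.27 (SE) and -2.86 ± 0.27 (adjusted p 1.1e-04 and 5.7e-06). Ect2, which activates RhoA at the cleavage site, stayed close to background in every group. Its levels were 4.25, 4.23 and 4.30 on WT1-high arrays, 4.27, 4.25 and 4.24 on WT1-intermediate arrays and 4.75, 4.78 and 4.91 on WT1-negative arrays, with no liver array detected. Its fall was at least 1.20-fold and at least 1.19-fold (adjusted p 0.0033 and 0.003).

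**Figure D3:**
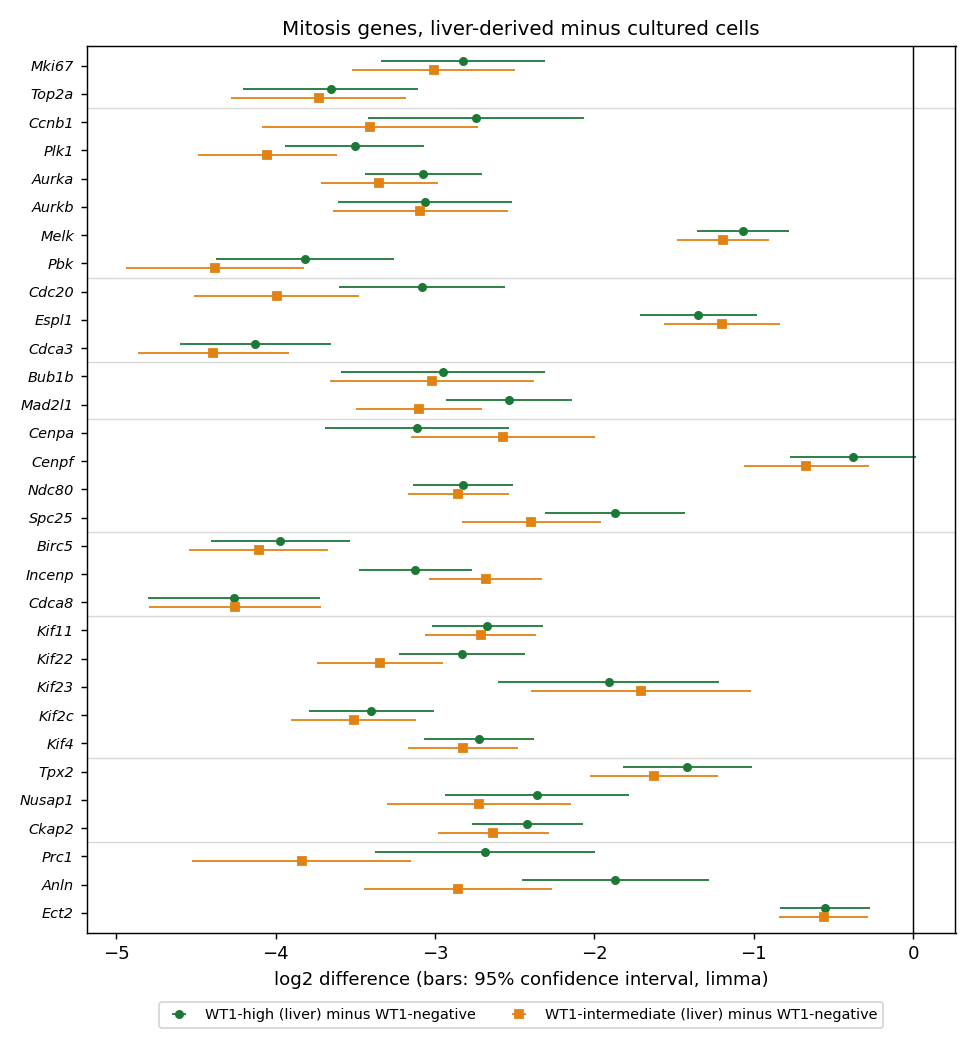
Log2 difference of each tested member from WT1-negative cells, for WT1-high (green circles) and WT1-intermediate cells (orange squares), with 95% confidence intervals from limma. All points lie left of 0, from -4.39 for Cdca3 to -0.38 for Cenpf, and only the interval of Cenpf in WT1-high cells reaches 0. Members detected on no array of a liver group (4 for WT1-high, 10 for WT1-intermediate) are drawn at their measured difference, although only a bound is known.

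Liver and culture arrays did not overlap for any of the 31 tested members in either comparison, as was true in the lower direction for 37.7% and 37.5% of all probes. The 31 include the 22 members detected on at least 3 liver arrays. The other 9 passed the filter only through the WT1-negative arrays, so part of this separation was built into the selection. The sizes depend on the background correction and, less, on the scaling. Without background correction the median over the tested members was -1.60 in WT1-high cells and -1.69 in the WT1-intermediate ones, and with an offset of 50 it was -2.13 and -2.26, with 30 and 31 members called lower each time. Mki67, for one, had log2 differences of -1.55 and -1.61 without the correction. With median scaling or cyclic loess in place of quantile normalisation the median of all probes for WT1-intermediate cells moved from -0.13 to -0.01, and with cyclic loess that for WT1-high cells moved from -0.10 to 0.01. With median scaling Cenpf (-0.24, adjusted p 0.45) and Ect2 (-0.11, adjusted p 0.72) were no longer called in WT1-intermediate cells.

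Whether both WT1-positive populations express the mitosis genes alike was then compared. No member was called in either direction by limma, where 0.904% of all probes were called higher and 2.64% lower in WT1-high cells. At an unadjusted p under 0.05 there were 9 members, among them Incenp, which was lower in WT1-high cells. The share of all probes under this unadjusted threshold was not counted, so the number has nothing to be set against. In value 26 of 31 tested members were higher in WT1-high cells (median 0.18, all probes 0.05), but with median scaling 13 were and with cyclic loess 12, so the direction over the list depends on the scaling. Without WT1-high replicate 8 it was 19 of 31 (median 0.05). The largest differences were those of Prc1 (1.15 ± 0.31 SE, 95% interval 0.46 to 1.84, adjusted p 0.073), Anln (0.99 ± 0.27, 0.40 to 1.57, 0.072) and Cdc20 (0.91 ± 0.24, 0.39 to 1.43, 0.061). For each of these the WT1-high arrays lay above the WT1-intermediate arrays, by all 4 tested probes in the case of Cdc20. The dimmest of these Cdc20 probes was detected on 1 WT1-high array and on no WT1-intermediate array, so its order is mostly not a measured one. Groups also did not overlap for Melk, Mad2l1, Cenpf and Spc25 (WT1-high above) and for Incenp (below), that is in 7 of 31 tested members upwards and 1 downwards, against 11.5% and 8.60% of all probes. Melk was under background on all 6 liver arrays and its second probe lay the other way, so its order is not a measured one. Cenpf was detected on 1 WT1-high array and on no WT1-intermediate array. The second tested probes of Mad2l1 (0.40) and Spc25 (0.11) overlapped between the liver groups. Among the 27 members detected on at least 1 liver array the counts were 6 and 1. Prc1 (1.56, adjusted p 0.0084), Cdc20 (1.21, 0.0091) and Pbk (0.89, 0.030) were called higher without WT1-high replicate 1, and Anln (1.23, 0.039) without WT1-intermediate replicate 8. Of the 15 macrophage markers 9 were called lower in WT1-high cells, the part of which was not tested. Mki67 (0.18, interval -0.33 to 0.70) and Top2a (0.08, -0.47 to 0.62) were not called, and their intervals still allow changes of about the size seen for Ccnb1 (0.66).

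The same replicate numbers mark liver arrays of both groups, and over all kept probes arrays that share a number deviated together. The comparison was therefore also run with the number as a block. Over the member probes alone the deviations correlated at 0.44 for number 1, 0.20 for number 8 and -0.07 for WT1-high 29 with WT1-intermediate 30. The other combinations ranged from -0.54 to 0.25. With 1 and 8 paired, the fit used only these 4 liver arrays and left 1 residual degree of freedom. It called 4 members higher in WT1-high cells, which were Prc1 (1.22, adjusted p 0.00056), Anln (1.07, 0.00061), Cdc20 (0.84, 0.011) and Ccnb1 (0.68, 0.046). With 29 and 30 paired as well 5 were called, the former 4 and Kif22 (0.51, 0.041). A random block called 3, which were Prc1, Anln and Cdc20. Within number 1, number 8 and the pair of 29 with 30, Prc1 was higher in WT1-high cells by 0.49, 1.94 and 1.01, Anln by 1.04, 1.10 and 0.82, and Cdc20 by 0.54, 1.13 and 1.07 on the log2 scale. Over the tested members, 22, 27 and 14 of 31 were higher in these pairs, and 12 were higher in all 3 and 2 lower in all 3. The rest changed sign between pairs.

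Probes of a gene disagreed in sign between the liver groups for 3 members. Birc5 gave 0.13, 0.18 and -0.03, Kif23 gave -0.20 and 0.13, and Melk gave 0.13 and -0.18 on the log2 scale. None of these was called. Cenpa (-0.54, interval -1.12 to 0.04) and Incenp (-0.44, -0.80 to -0.09) had the lowest values, and with cyclic loess Incenp was called lower in WT1-high cells (-0.67, adjusted p 0.020).

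**Figure D4:**
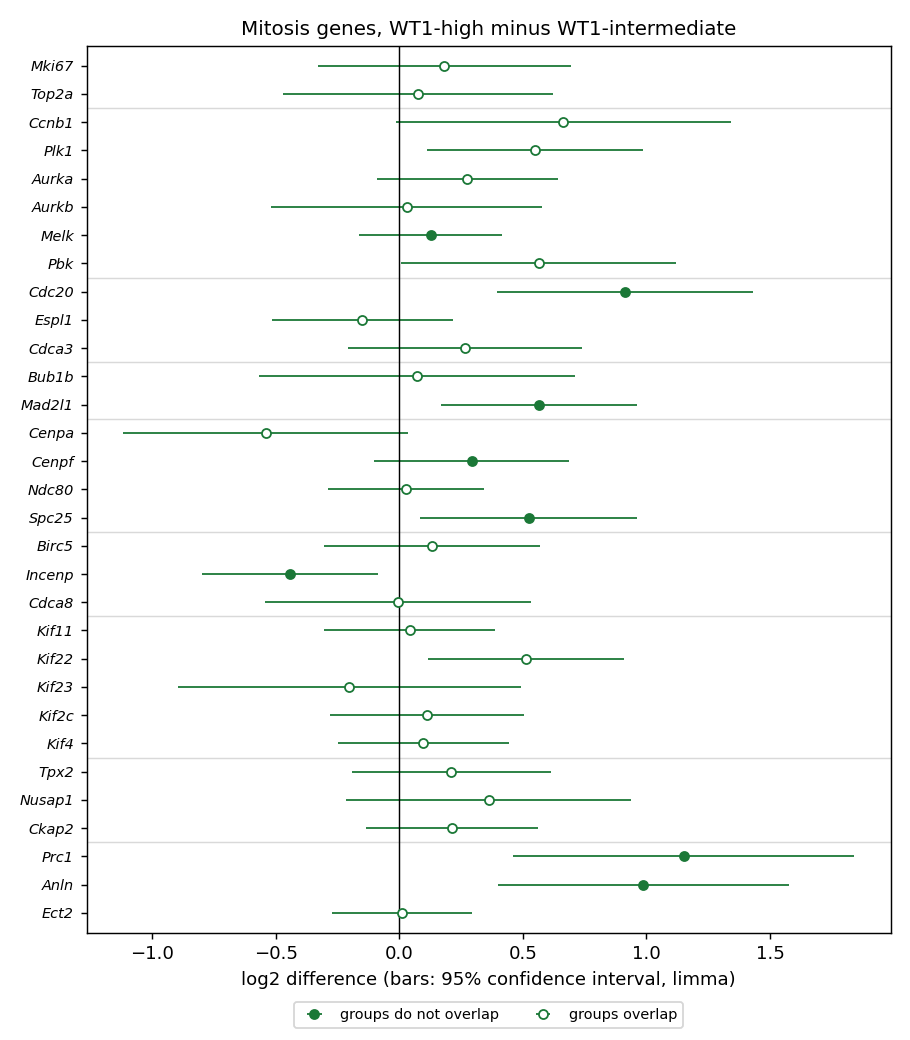
Log2 difference of WT1-high minus WT1-intermediate cells for the 31 tested members, with 95% confidence intervals from limma and filled points where the groups of 3 arrays do not overlap (Melk was detected on none of these arrays). Prc1 (1.15), Anln (0.99) and Cdc20 (0.91) lie farthest to the right, Cenpa (-0.54) farthest to the left, and most intervals include 0.

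The members moved together from array to array. The mean over the 31 tested members of the log2 level, each centred on its mean over 9 arrays, was -1.09, -0.49 and -0.83 on WT1-high arrays, -1.19, -0.99 and -0.95 on WT1-intermediate arrays and 1.99, 1.84 and 1.72 on WT1-negative arrays. WT1-high replicate 8 was the highest of its group in 24 of 31 members and replicate 1 the lowest in 21. Replicate 8 also had the highest mean signal of the 9 arrays (289), the part of which was not tested. In WT1-intermediate cells replicate 1 was the lowest in 21. Number 1 was thus the lowest array of both liver groups for most members. Members above background numbered 23, 25 and 21 in WT1-high, 18, 21 and 20 in WT1-intermediate and 31, 31 and 31 in WT1-negative arrays. Of these 31, 9 passed the filter only by virtue of the WT1-negative arrays, so part of this contrast was built into the selection. By group, 20 members were detected on all 3 WT1-high arrays, 7 on some and 4 on none, against 18, 3 and 10 in WT1-intermediate cells. Median SD over the tested members was 0.30 on WT1-high arrays, 0.18 on WT1-intermediate arrays and 0.19 on WT1-negative arrays.

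**Figure D5:**
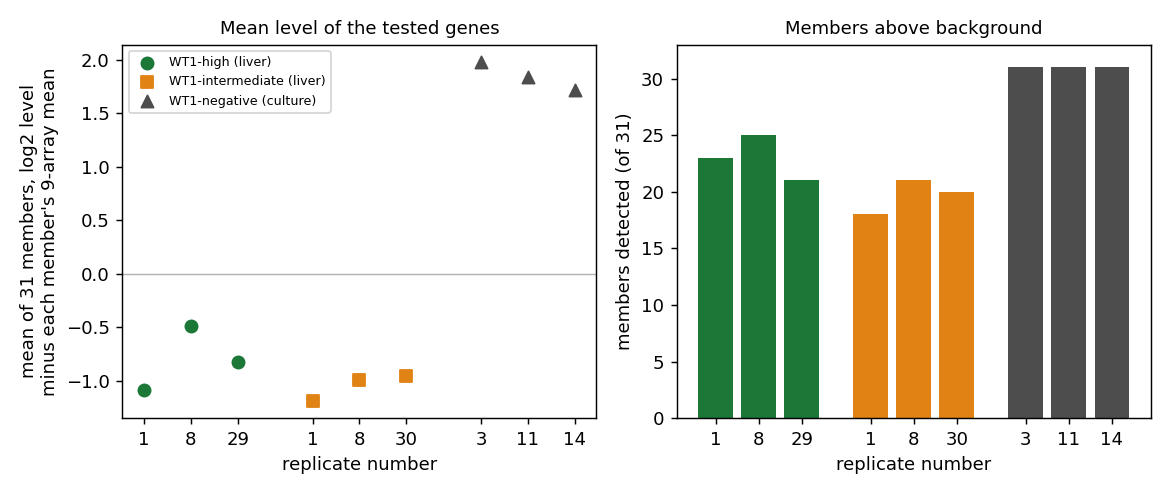
Left, mean log2 level of the 31 tested members on each array, each member centred on its mean over the 9 arrays. Right, number of the 31 members detected on each array (detection p under 0.05), with groups coloured alike in both panels. Both measures separate the cultured from the liver arrays, and WT1-high replicate 8 is the highest liver array in both. Part of the separation was built in, as 9 of the 31 members passed the detection filter only through the WT1-negative arrays.

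A further 77 genes of the mitotic pathway were examined by list, of which 57 were tested. Of these, 40 were called lower and 5 higher in WT1-high cells, and 42 lower and 4 higher in WT1-intermediate cells, with median log2 differences of -1.15 and -1.36. Over all probes 33.1% and 33.6% were called lower and 26.5% and 24.4% higher, with medians of -0.10 and -0.13. Some of these genes, among them Cdc25b, Cdc25c and Mybl2, passed the filter only by virtue of the WT1-negative arrays. For such genes a difference was built into the selection, and the counts were not split by this. No gene of these lists was called between the liver groups. The kinase partner of cyclin B, Cdk1, behaved like the members, at -2.94 and -3.56 on the log2 scale. Among M-phase regulators 5 of 8 tested were called lower in each comparison, and Pkmyt1, a kinase that holds Cdk1 inactive, was called higher in WT1-high cells (0.62).

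The factors that act on CHR promoters were measured as well. Of 8 tested genes of the MuvB, B-Myb, FoxM1 and DREAM complex list, 5 were called lower and 1 higher in WT1-high cells, and 6 and 1 in WT1-intermediate cells. Foxm1 and Mybl2, which encode the activators FoxM1 and B-Myb, had log2 differences of -1.96 and -1.86 in WT1-high cells. There Foxm1 was detected on 3 arrays and Mybl2 on 1. Both were detected on no WT1-intermediate array, where Foxm1 was at least 4.84-fold and Mybl2 at least 3.37-fold lower. E2f5, a repressive E2F of the DREAM complex, was higher (0.86 and 0.60).

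Structural chromosome genes were mixed. Of 14 tested condensin, cohesin and shugoshin genes, 7 were called lower in WT1-high cells and 8 in the WT1-intermediate ones, and 2 higher in each, where 33.1% and 33.6% of all probes were called lower and 26.5% and 24.4% higher. The condensin subunit Ncaph (-2.64 and -2.69) and the shugoshins Sgol1 (-2.34 and -2.27) and Sgol2 (-2.59 in WT1-high cells, at least 5.79-fold lower in the WT1-intermediate ones, where no array detected it) fell. The cohesin subunits Smc3 and Rad21, which also act outside mitosis, rose. Smc3 had log2 differences of 2.04 and 1.95, and Rad21, detected on no WT1-negative array, was at least 1.52-fold and at least 1.51-fold higher. Rad21 thus passed the filter only through the liver arrays, so that a difference was built into its selection. Of 27 further kinetochore and spindle genes tested, 23 were called lower in each comparison and 1, Spc24, higher (1.27 and 2.00). Spc24 encodes the partner of Spc25 in the Ndc80 complex, and Spc25 fell in both comparisons.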

How the data were processed

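The deposited values were the authors' unnormalised summary probe profiles, given as a linear intensity per probe with a detection p-value per probe, as deposited by the authors, that is the share of negative controls brighter than the probe. Intensities of the 9 arrays were background corrected from 936 negative control probes, quantile normalised and log2 transformed with the neqc function of limma 3.58.1 in R 4.3.3 (offset 16), as the authors outlined. A probe was kept (20573 of 45281) where 3 or more of the 9 arrays gave it a detection p under 0.05. A linear model with 3 groups was fitted to all kept probes (6 residual and 5.19 prior degrees of freedom), and each pair of groups was tested with limma's moderated statistic, two-sided. Every adjusted p was adjusted by Benjamini-Hochberg over all kept probes, and a call is an adjusted p under 0.05. Errors are SE from the fit unless stated. The number of arrays limits the precision. Replicates were animals in vivo and separate cell isolations in vitro, by the study's methods.

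Probes were matched by symbol without regard to case. A fold of a member not detected on any array of the dimmer group is set against the lowest detected signal of that group, as a lower bound, and is written "at least". Values on every array are given for Mki67, Top2a, Ccnb1, Plk1, Cdc20, Bub1, Cenpa, Birc5, Kif11, Tpx2 and Prc1, for the members with the largest fall and the smallest measured difference from WT1-negative cells, and for members whose probes disagreed in sign. The members, lists and tests were chosen with earlier results of these data known. One column carried the number 29 for a WT1-intermediate array labelled 30 and was taken as that array, the only one of its group left. Deviations from the group means correlated, across kept probes, at 0.35 for the arrays numbered 1, 0.34 for those numbered 8 and 0.47 for WT1-high 29 with WT1-intermediate 30, and at -0.39 to 0.03 for the other combinations. The reported fit has no block, as the study states none. Steps were tested on simulated data. Promoter windows were those of RefSeq (GRCm38.p6).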

Additional observations from a re-analysis of the deposited data

Results flagged for a closer look

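Some member probes entered no comparison because they were detected on fewer than 3 arrays. Of these, 2 gave a signal on several arrays of 1 group, WT1-negative cells, and on no liver array. A Top2a probe (ILMN_1255436) was detected on 2 of 3 WT1-negative arrays, with log2 levels of 4.91, 4.49 and 4.75 in replicates 3, 11 and 14, against at most 4.26 on WT1-high and 4.23 on WT1-intermediate arrays. A Melk probe (ILMN_2593241) was likewise detected on 2 of 3 WT1-negative arrays, at 5.23, 4.51 and 5.12, against at most 4.26 and 4.28.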

How the results depend on the processing

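All alternatives were listed with earlier results of these data known. Against WT1-negative cells, 30 members were called lower in WT1-high cells, 31 were in the WT1-intermediate ones, and no alternative run turned a member's direction. With detection required on all 9 arrays, 17 members were tested and 17 were called lower in each comparison, since fewer probes were tested. Leaving out 1 array gave 26 to 30 and 27 to 31, the lower counts when a WT1-negative array was left out and only 27 members were tested. Counted as probes, 45 of 46 and all 46 were called lower. Median scaling gave 29 in WT1-intermediate cells.

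Between WT1-high and WT1-intermediate cells 0 members were called. The count called higher was 2 with median scaling (Prc1 1.17, adjusted p 0.039, and Anln 0.98, adjusted p 0.046, by limma), 4 with the fixed replicate block of 1 and 8, 5 with 29 and 30 paired as well, and 3 with the random replicate block. It was 0 to 3 when 1 array was left out. Over all 20573 probes, median scaling called 341 higher, against 186 in the reported fit. The blocks called 657, 603 and 720 higher in the same order. The count of members called lower was 1 with cyclic loess (Incenp). The replicate block changed no other call, as the random block gave 30 and 31 against WT1-negative cells. Among single members the sign of an uncalled difference between the liver groups changed 52 times over all alternatives. The cause of these changes was not tested. Signal over background limits 10 tested members of the WT1-intermediate group and 4 of the WT1-high group, which were detected on none of those arrays.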
